A study of Homo sapiens with 16 samples.

Results

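The transcripts described here were the downstream-of-gene (DoG) transcripts of splicing factor and RNA helicase genes. Members were the DoGs whose gene has a symbol, without a hyphen, that begins with HNRNP, SRSF, SF3A, SF3B, SNRP, PRPF, DDX, DHX, RBM, LSM or U2AF followed by the number or letter of a family member. The rule took 67 of the 3139 DoGs with FPKM values, and these belonged to 65 of 3135 genes, since HNRNPC and SRSF7 each had 2 DoGs over nearly the same region. By role, the 65 genes were 12 hnRNP genes, 7 SR genes, 7 Sm and LSm genes, 4 PRPF genes, 16 DEAD-box (DDX) genes, 5 DEAH-box (DHX) genes and 14 RBM genes. They were part of the 184 protein-coding genes of GENCODE v44 whose symbols fit the rule. None of the 14 genes for U2 snRNP and U2AF proteins had a DoG with FPKM values.

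RNA came from HEK293 cells, an established line derived from human embryonic kidney, either untreated (control) or kept for 9 h in medium with sorbitol at 200 mM and cycloheximide at 100 μg/mL (DoG-inducing). Sorbitol imposes osmotic stress and cycloheximide blocks translation, and their separate effects cannot be told apart here because both were given together. RNA was prepared by conventional acid guanidinium-phenol-chloroform (AGPC) extraction, by hiAGPC, in which the lysate is heated at 55 °C, or by SERIPH. SERIPH takes the aqueous phase first (1st-step fraction) and then applies hiAGPC to the remaining interphase (2nd-step fraction). Each of the 8 groups held 2 libraries, labelled as biological replicates (n = 2 throughout). SERIPH draws both of its fractions from the same lysate, and the paper describes conventional and hiAGPC extraction side by side on shared samples. Libraries of different preparations within a condition are thus not independent samples of cells, and the labels do not say which of them share cells. The model used below took all 16 libraries as independent. DoG regions were called by the authors in each library, and FPKM was given over a single region per DoG, which for 62 of the 65 members was the longest region listed in any library to within 1 bp. FPKM values are shares of the reads of 1 library, so a higher value can stand for more DoG RNA or for less of other RNA, and fewer cells making a transcript cannot be told apart from less RNA per cell. The regions lie downstream of genes, so the identity of the cells could not be checked against marker genes.

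A DoG arises when RNA polymerase II runs past the cleavage and polyadenylation site of a gene and goes on transcribing the sequence downstream, which is known to happen widely under osmotic stress. The hnRNP proteins package nascent RNA and influence splice site choice, SR proteins recruit the splicing machinery to exons, Sm and LSm proteins form rings around small nuclear RNAs or mRNA ends, and PRPF proteins act in spliceosome assembly. The DEAD-box and DEAH-box proteins remodel RNA and RNA-protein complexes with energy from ATP, and RBM proteins carry RNA recognition motifs.

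ARTDeco, the program that called the regions, starts each one at the annotated end of a gene, so the listed start is a position of the annotation and not a measured site. The sequences around it are shown for context. For the member with the highest mean FPKM among those with a polyadenylation hexamer in each role, 30 bases just before the listed DoG start are given 5′ to 3′ on the strand of the gene (GRCh38), with the hexamer in capitals.
HNRNPDL, minus strand, chr4:82422575-82422604: aagatgaggactATTAAAatgagatgtctg
SRSF1, minus strand, chr17:58000925-58000954: gttgttgagctaATTAAAtgtgaaccctga
LSM14A, plus strand, chr19:34229268-34229297: ataaaactgttcAATAAAaaatgctcgtca
PRPF38A, plus strand, chr1:52420794-52420823: ttttctttttacAATAAAcatgttaatttc
DDX46, plus strand, chr5:134831088-134831117: aattccttataaAATAAAattaattcgaat
DHX9, plus strand, chr1:182887945-182887974: cacataaacctgAATAAAacttttgaccta
RBM4, plus strand, chr11:66668344-66668373: tgcttacaactgATTAAAgaatgttctcac

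AATAAA, or else ATTAAA, read on the strand of the gene, stood within the last 50 bases before the listed start in 43 of the 65 members (66.2%). It was AATAAA in 33 members and ATTAAA in 10. The share over all genes with FPKM values was 65.7%, so the members held a hexamer about as often as the rest. The hexamer ended 10 to 37 bases before the start, with a median of 20. A window of 100 bases gave 44 members (67.7%) against 69.7% of all genes.

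The first 60 bases of the listed region are given for 3 members that rose strongly and for DHX9, whose region never went beyond 10 kb. TGTG or GTGT, read on the same strand and joined where they overlap, is in capitals.
HNRNPDL, chr4:82422505-82422564: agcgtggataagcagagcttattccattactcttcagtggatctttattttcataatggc
SRSF1, chr17:58000859-58000918: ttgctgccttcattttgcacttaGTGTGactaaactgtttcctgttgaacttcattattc
RBM4, chr11:66668381-66668440: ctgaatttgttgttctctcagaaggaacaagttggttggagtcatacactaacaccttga
DHX9, chr1:182887983-182888042: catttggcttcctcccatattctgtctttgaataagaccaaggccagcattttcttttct

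GU-rich stretches downstream of the cleavage site are known to bind the cleavage factor CstF. The TGTG or GTGT letters were in the first 60 bases of 24 members (36.9%) and of 46.5% of all genes. Over the first 200 bases the median share of A was 26.5% in the members and 25.5% over all genes. The start position of each of the 65 members was the same in every library that listed it. It lay within 1 kb of the GENCODE v44 gene end for 59 of them. DDX46 was the exception that matters for its values, since its region began at −24012 bp from the annotated end and so lay in part inside the gene as GENCODE v44 has it.

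The readthrough regions of the members were long. Their longest listed region had a median of 60 kb, against 30 kb over all genes, and 29 members (44.6%) reached at least 100 kb, against 19.4% of all genes. The longest belonged to HNRNPD, which binds AU-rich elements, with 905 kb (chr4:81446523-82351522), HNRNPA2B1, which acts in splicing and RNA transport, with 720 kb (chr7:25451151-26171150), and the SR protein gene SRSF1 with 666 kb (chr17:57334495-58000918). At the other end, 11 members never exceeded 10 kb, among them HNRNPA1 and DHX9. Of the longest regions, 39 met another gene on the same strand and 23 of these a protein-coding one, so reads of the readthrough and of the other gene cannot be told apart there. The region of SRSF1 runs over VEZF1, CUEDC1, MRPS23 and CCDC182, and that of SRSF3 over CDKN1A, RAB44, C6orf89, PI16 and FGD2.

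Some members were neighbours of each other or of other DoG genes. HNRNPDL and HNRNPD are neighbours on the minus strand of chromosome 4, and the HNRNPDL region ended 3.06 kb before HNRNPD in all 4 DoG-inducing hiAGPC and SERIPH 2nd-step libraries. The DDX19B region, listed in 1 library, ended 1.56 kb before its paralog DDX19A. The SRSF7 region in its longest form took in HNRNPLL, which itself had a listed DoG in both control hiAGPC and both control SERIPH 2nd-step libraries but no FPKM value. The gene RBM20 lay inside the DoG region of the upstream gene SMC3 in 4 libraries, and the part of transcripts begun upstream in its values was not tested.

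Under control conditions few members had a listed region. The 2 libraries listed 11 and 12 members in the conventional preparation, 16 and 18 in hiAGPC, 11 and 10 in the 1st-step fraction and 21 in each library of the 2nd-step fraction. Under DoG-inducing conditions the numbers were 25 and 20, 46 and 43, 16 and 22, and 57 and 60 in the same order. Within every preparation the DoG-inducing counts lay above the control counts without overlap. The exact permutation test of these counts (two-sided) returned p = 0.3333, below which 4 libraries cannot go. The test therefore could not decide whether the conditions differed. Members came from genes that at least 1 library had listed, and 43 members were listed in no control library. The counts thus describe the same lists through which members entered, and are no independent support for a rise in listing.

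**Figure D1:**
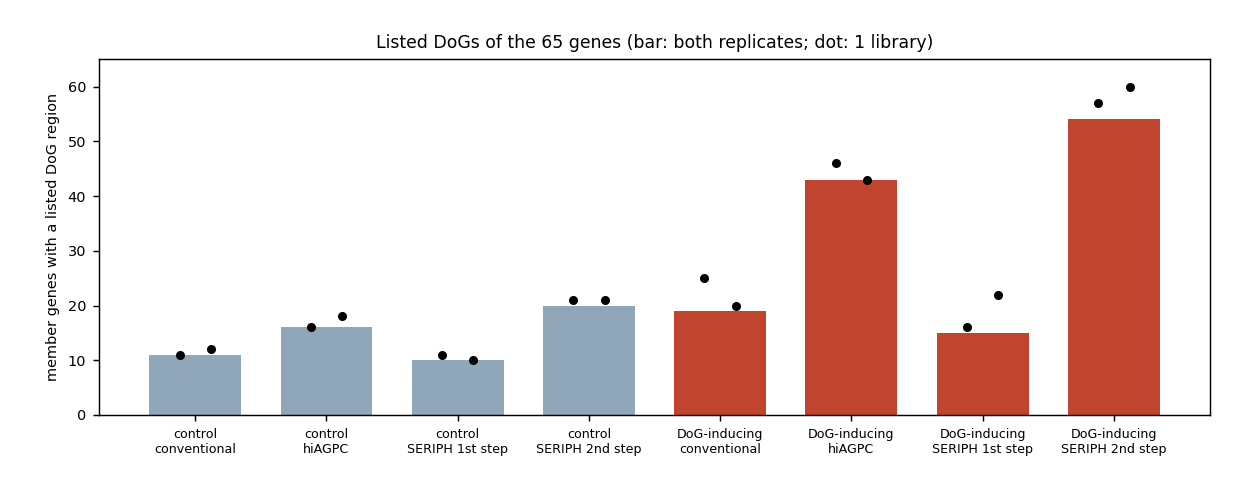
Number of the 65 member genes with a listed DoG region (y axis, starting at 0) in the 8 groups (x axis); bars give the genes listed in both replicates and dots each of the 2 libraries. The DoG-inducing hiAGPC and SERIPH 2nd-step bars, at 43 and 54, stand above the other 6, which lie between 10 and 20.

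Counting a gene when both replicates listed it, 11 members (16.9%) were found in control conventional libraries, where 8.74% of all genes were. Control hiAGPC gave 16 members (24.6%, all genes 12.9%), the control SERIPH 1st-step fraction 10 (15.4%, all genes 6.92%) and the control 2nd-step fraction 20 (30.8%, all genes 18.2%). Under DoG-inducing conditions the conventional preparation gave 19 members (29.2%, all genes 9.73%) and the SERIPH 1st-step fraction 15 (23.1%, all genes 8.1%). The hiAGPC preparation gave 43 (66.2%, all genes 44.4%) and the SERIPH 2nd-step fraction 54 (83.1%, all genes 64.1%). The members were thus listed more often than the average gene in every group, in descriptive terms and with no test.

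The members differed in when they were listed. HNRNPC, HNRNPD, SRSF1, SRSF3 and DDX18, a nucleolar helicase, were listed in all 16 libraries, which was 7.69% of the members and 1.24% of all genes with FPKM values. At the other extreme, 43 members were listed in no control library (66.2%, all genes 74.1%). Both DoG-inducing SERIPH 2nd-step libraries and no other listed 10 members (15.4%, all genes 14.5%), a share close to that of all genes. These 10 included DDX11, DDX23 and DHX8, the last a helicase that releases spliced mRNA from the spliceosome, together with RBM20 and the Sm protein gene SNRPD3. Both replicates of the DoG-inducing 2nd-step fraction listed 54 members, and 2010 of all 3135 genes. Both replicates of DoG-inducing hiAGPC also listed 41 of these members, and 1287 of these genes. The other 13 members were listed in both replicates of the 2nd-step fraction without both of hiAGPC. The reverse held for RBM19 and RBM41. DHX34, a helicase of nonsense-mediated decay, was the single member listed in no DoG-inducing library, as were 377 of the 3135 genes.

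FPKM, which is per length of region, rested on what the DoG-inducing libraries listed. Every gene with FPKM values was listed in at least 1 library, and the longest listed region was reached in a DoG-inducing 2nd-step library for 60 of the 65 members (92.3%, all genes 79.7%). Members and regions thus entered the table largely through the group in which they were high, so the FPKM contrasts below with that group describe the values and are no independent support for a rise. The control libraries had medians of 0.06 to 0.14 over the 65 members. After induction the median was 0.28 and 0.25 in the conventional libraries, 0.24 in both SERIPH 1st-step libraries, 0.93 and 0.89 in hiAGPC, and 1.27 and 1.23 in the 2nd-step fraction.

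**Figure D2:**
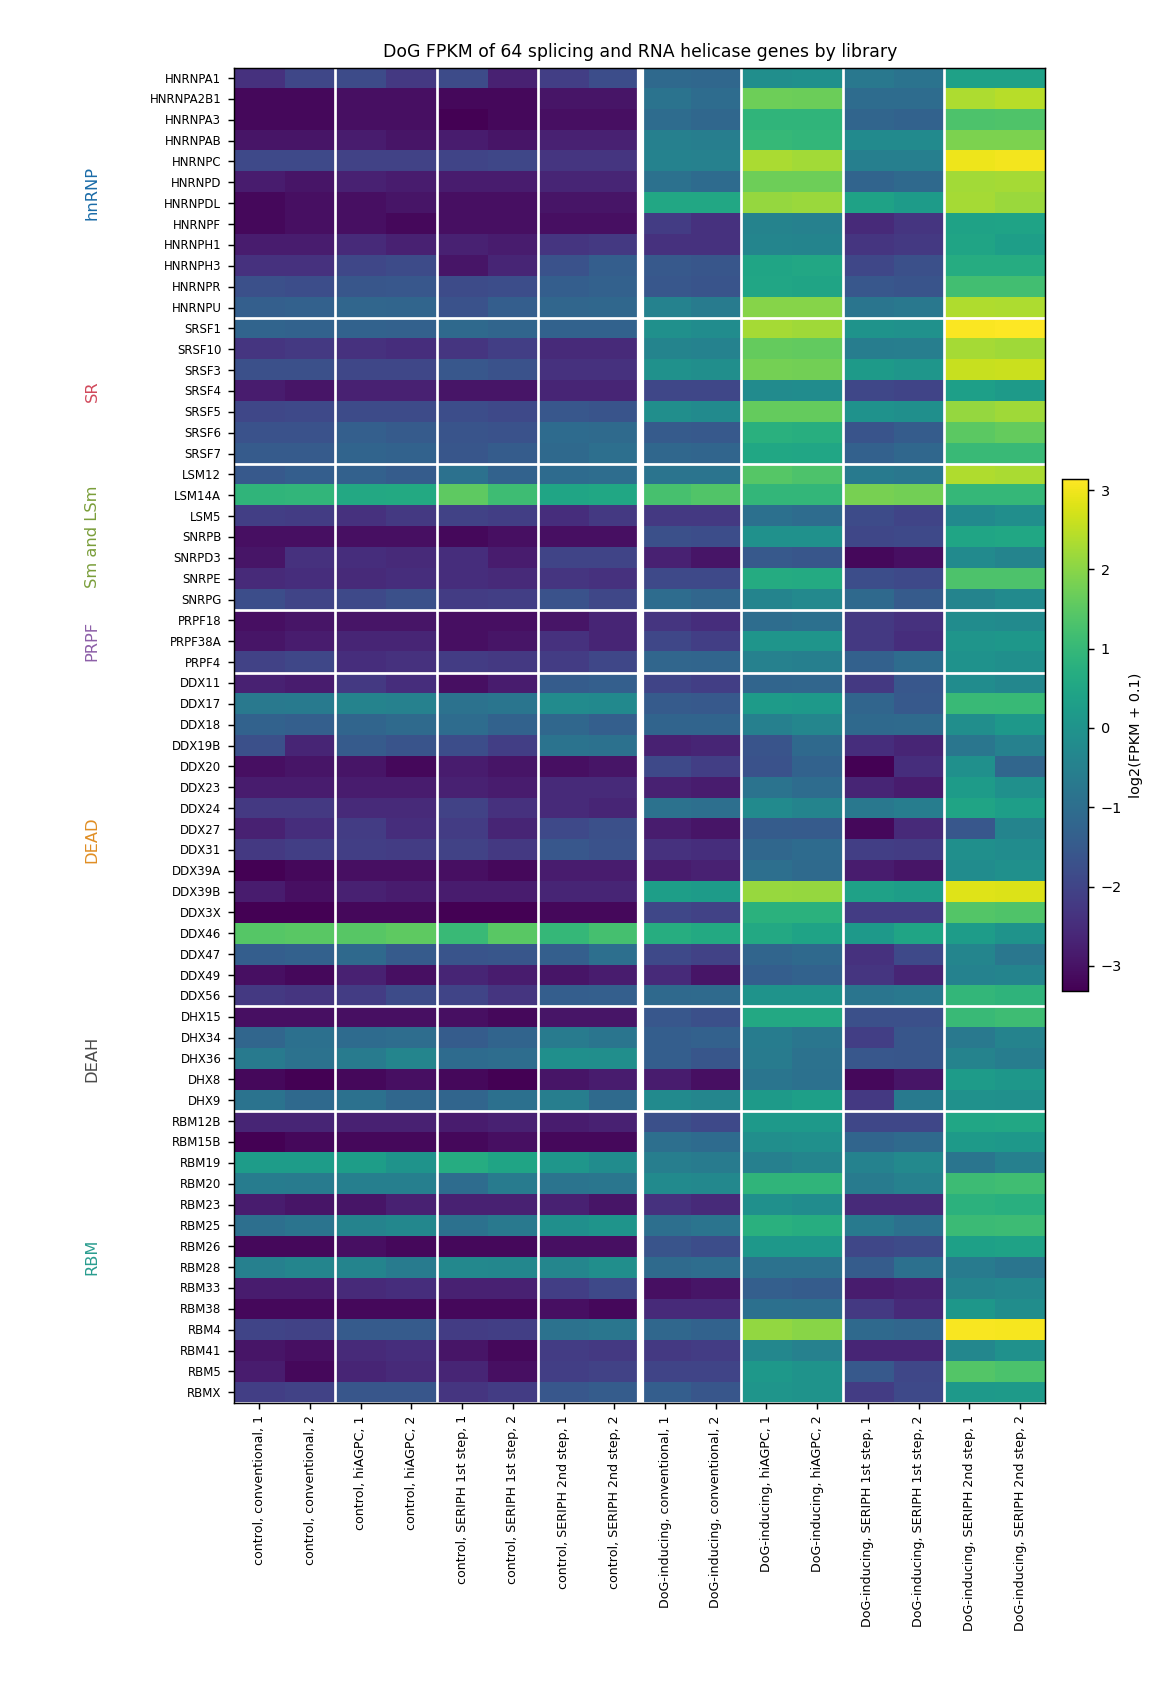
FPKM of 64 of the 65 members (y axis, by role) in the 16 libraries (x axis, control on the left and DoG-inducing on the right), coloured as log2(FPKM + 0.1). The DoG-inducing hiAGPC and SERIPH 2nd-step columns are brightest, with SRSF1 at 8.56 and 8.72 in the 2nd-step libraries, while DDX46, RBM19 and RBM28 are brighter in the control columns.

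The DoGs of hnRNP genes were low in the control libraries and high after induction. HNRNPC, whose protein coats nascent transcripts, had FPKM of 0.17 in both control conventional libraries, 0.14 in both hiAGPC libraries, 0.15 and 0.16 in the 1st-step fraction and 0.1 in both 2nd-step libraries. Under DoG-inducing conditions it had 0.63 and 0.61, 4.87 and 4.66, 0.59 in both, and 7.84 and 8.12, in the same order. Each preparation separated the conditions without overlap for HNRNPC, and the hiAGPC and 2nd-step libraries stood far above the rest.

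HNRNPA2B1 lay between 0.01 and 0.03 in all control libraries. It had 0.45 and 0.39 in the DoG-inducing conventional libraries, 3.18 and 3.13 in hiAGPC, 0.39 in both 1st-step libraries and 5.02 and 5.35 in the 2nd-step fraction. The log2 fold change of HNRNPA2B1 in the 2nd-step fraction was 5.34 ± 0.07 (SE, limma adjusted p = 3.59e-14), beside 5.34 ± 0.07 for HNRNPC.

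HNRNPDL, a paralog of HNRNPD, lay between 0.01 and 0.03 in the control libraries. After induction it had 1.38 and 1.37 in the conventional preparation, 4.21 and 4.42 in hiAGPC, 1.22 and 1.07 in the 1st-step fraction and 4.76 and 4.43 in the 2nd-step fraction. HNRNPDL was thus the member with the highest induction in the conventional preparation, at a log2 fold change of 3.68 ± 0.08 (SE, limma adjusted p = 3.7e-11). Its 2nd-step values lay just above its hiAGPC values. HNRNPD, the next gene downstream, had 0.03 to 0.06 in the control libraries and 3.21, 3.18, 4.61 and 4.73 in the DoG-inducing hiAGPC and 2nd-step libraries. HNRNPU, a nuclear matrix and chromatin-associated protein, began higher, with 0.34 and 0.35 in the control 2nd-step fraction, and reached 5.06 and 5.02.

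All 7 SR genes rose in hiAGPC and in the 2nd-step fraction. SRSF1 had FPKM between 0.3 and 0.36 in the 8 control libraries. It had 0.84 and 0.78 in the DoG-inducing conventional libraries, 4.76 and 4.58 in hiAGPC, 0.9 and 0.87 in the 1st-step fraction and 8.56 and 8.72 in the 2nd-step fraction. These last were the highest FPKM values of any member in any library. The listed SRSF1 region was 30 kb in all 8 control libraries, 40 kb in the DoG-inducing conventional and 1st-step libraries, 621 kb in both hiAGPC libraries, and 656 and 666 kb in the 2nd-step libraries.

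SRSF3, a small SR protein that also acts in mRNA export, had control values from 0.16 to 0.24 outside the 2nd-step fraction and 0.09 in both 2nd-step libraries. After induction it had 0.86 and 0.82, 3.37 and 3.28, 1.04 and 0.95, and 5.95 and 6.04 in the conventional, hiAGPC, 1st-step and 2nd-step libraries. The 2nd-step fraction thus held the lowest control values and the highest induced values of SRSF3. Its regions of 10 kb in all control libraries grew to 442 kb in both DoG-inducing 2nd-step libraries. SRSF5 reached 4.21 and 4.55 in the DoG-inducing 2nd-step libraries from 0.24 and 0.22 in the control ones. SRSF7 rose from 0.36 and 0.41 to 2.0 and 1.97, a change that was negative relative to the median of all DoGs.

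Among Sm and LSm genes LSM12 and SNRPE rose, while LSM14A stayed under the fold threshold. LSM12, which carries an LSm domain, had 0.38 and 0.4 in the control 2nd-step fraction and 5.11 and 4.87 after induction, with 2.59 and 2.41 in DoG-inducing hiAGPC. SNRPE, a core protein of spliceosomal snRNPs, had 0.1 and 0.09, and then 2.44 and 2.42, in the 2nd-step fraction. SNRPD3, another core Sm protein, had 0.08 and 0.07 in control hiAGPC, 0.25 and 0.23 in DoG-inducing hiAGPC, 0.15 in both control 2nd-step libraries and 0.76 and 0.66 in the DoG-inducing ones.

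LSM14A, a protein of cytoplasmic P-bodies, had the highest control level of its role. Its FPKM was 1.3 and 1.35 in the control 2nd-step fraction and 1.88 in both DoG-inducing libraries, while the 1st-step fraction held 2.78 and 2.1 under control conditions and 3.43 and 3.32 after induction. Its log2 fold changes on induction were 0.35 to 0.47 in the 4 preparations, with limma adjusted p-values from 0.000651 to 0.00529. LSM14A was 1 of 3 members with higher values after induction in the 1st-step than in the 2nd-step fraction. Its longest region, of 175 kb, ran over GPI and GARRE1 on the same strand.

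PRPF38A, a protein of the precatalytic spliceosome, had FPKM of 0.09 and 0.06 in the control 2nd-step libraries. After induction each hiAGPC library had 0.93 and the 2nd-step fraction had 0.93 and 0.98, which overlapped. PRPF4, of the U4/U6 snRNP, had 0.12 and 0.16 in the control 2nd-step libraries. After induction it had 0.62 and 0.59 in hiAGPC and 0.88 and 0.83 in the 2nd-step fraction, with no overlap. PRPF18, a factor of the 2nd step of splicing, had 0.03 and 0.06 in the control 2nd-step libraries and 0.79 and 0.76 after induction, above 0.4 and 0.42 in DoG-inducing hiAGPC.

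The DEAD-box genes ranged from a steep rise in DDX39B to lower values after induction in DDX46. DDX39B, an mRNA export helicase that also acts in spliceosome assembly, had FPKM between 0.02 and 0.06 in the control libraries. After induction it had 1.14 and 1.06 in the conventional libraries, 4.3 and 4.28 in hiAGPC, 1.19 and 1.12 in the 1st-step fraction and 7.02 and 6.91 in the 2nd-step fraction. Its log2 fold change in the 2nd-step fraction was 5.46 ± 0.09 (SE, limma adjusted p = 5.75e-14). This was the largest of the 65 at the pseudocount of 0.1, but HNRNPA2B1 led at 0.01 (7.02, DDX39B 6.64) and HNRNPC at 1 (3.03, DDX39B 2.91).

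DDX3X, which acts in translation initiation, was at 0 or 0.01 in every control library, below or at the rounding step of 0.01. It had 0.16 and 0.14 in the DoG-inducing conventional libraries, 1.66 and 1.64 in hiAGPC, 0.12 in both 1st-step libraries and 2.54 and 2.49 in the 2nd-step fraction. DDX17, a coregulator of splicing and transcription, had 0.51 and 0.53 in the control conventional libraries and 0.26 and 0.25 after induction, whereas in the 2nd-step fraction it had 0.77 and 0.74 under control conditions and 1.99 and 1.94 after induction. DDX17 was called higher in the 2nd-step fraction alone, and its fall in the conventional preparation did not reach the fold threshold (log2 fold change −0.80 ± 0.09, SE, limma adjusted p = 7.61e-06).

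DDX46, a helicase of the early spliceosome, went the other way. It had 2.61 and 2.72 in control conventional libraries, 2.66 and 2.79 in hiAGPC, 2.0 and 2.72 in the 1st-step fraction and 1.87 and 2.24 in the 2nd-step fraction. After induction the values were 1.54 and 1.42, 1.39 and 1.25, 1.03 and 1.28, and 1.08 and 0.9. Each preparation separated the conditions, with the DoG-inducing libraries lower, at log2 fold changes from −0.99 to −0.81 that stayed short of the threshold of 1. Its region lies in part within the annotated gene, so gene and readthrough transcripts cannot be told apart in these values.

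Of the DEAH-box genes, DHX15, a helicase that takes the spliceosome apart, rose from 0.03 in both control 2nd-step libraries to 1.98 and 2.11. DHX15 was listed at 10 kb in 7 of the 8 control libraries, in no DoG-inducing conventional or 1st-step library, and at 475, 525, 445 and 560 kb in the DoG-inducing hiAGPC and 2nd-step libraries. DHX8 went from 0.03 and 0.04 to 1.06 and 0.97 in the 2nd-step fraction. DHX9, which resolves R-loops and RNA duplexes, had 0.43 and 0.35 in control hiAGPC and 1.04 and 1.15 after induction, but 0.58, 0.37, 0.86 and 0.84 in the 2nd-step fraction. It was the single member called higher in hiAGPC and not in the 2nd-step fraction, where its log2 fold change was 0.75 ± 0.37 (SE, limma adjusted p = 0.0666). DHX36, which unwinds G-quadruplexes, had 0.83 and 0.82 in the control 2nd-step fraction and 0.64 and 0.57 after induction.

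RBM4, a regulator of alternative splicing, had the second highest FPKM of all members. Its values in control libraries were 0.15 and 0.14 in the conventional, 0.26 in both hiAGPC, 0.12 and 0.13 in the 1st-step and 0.44 and 0.48 in the 2nd-step preparation. After induction they were 0.35 and 0.31, 4.19 and 3.85, 0.36 and 0.34, and 8.33 and 8.16. The DoG-inducing 1st-step libraries of RBM4 stood below the control 2nd-step libraries, so the fraction separated its values in both conditions.

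RBM5, a splicing regulator of apoptosis genes, had 0.06 and 0.07 in control hiAGPC, 0.99 and 0.89 after induction, 0.13 and 0.14 in the control 2nd-step fraction and 2.56 and 2.37 after induction. RBM19 and RBM28, both nucleolar proteins, did not rise. RBM19 had 1.11 and 0.89 in control and 0.6 and 0.67 in DoG-inducing hiAGPC, and 0.96 and 0.79 against 0.47 and 0.6 in the 2nd-step fraction. RBM28 had 0.68 and 0.82 against 0.55 and 0.47 in the 2nd-step fraction. RBM19 and RBM28 were listed in all 8 control libraries, at 10 to 15 kb, and in 5 and 1 of the 8 DoG-inducing libraries.

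Induction was tested across all 3139 DoGs with limma on log2(FPKM + 0.1), a scale that understates changes of low values, and calls needed a p-value under 0.05 after Benjamini-Hochberg adjustment together with a log2 fold change of 1 or more in size. In the SERIPH 2nd-step fraction 55 members were called higher (84.6%), where 74.6% of all DoGs were, and 0 lower, where 11.7% were. In hiAGPC 53 members were called higher (81.5%), where 70.2% of all DoGs were, and 0 lower, where 9.14% were. The conventional preparation had 21 higher (all DoGs 22.2%) and 0 lower (all DoGs 11.0%), and the 1st-step fraction 24 higher (all DoGs 21.8%) and 0 lower (all DoGs 10.6%). At an adjusted p-value under 0.05 with no fold threshold, 4 members were lower in the 2nd-step fraction, 3 in hiAGPC, 7 in the conventional preparation and 9 in the 1st-step fraction. Of all 3139 DoGs, 488, 484, 684 and 691 were lower in the same order. At an unadjusted p under 0.05, 62, 61, 55 and 51 members differed in either direction, beside 3006, 2949, 2544 and 2515 of all DoGs.

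**Figure D3:**
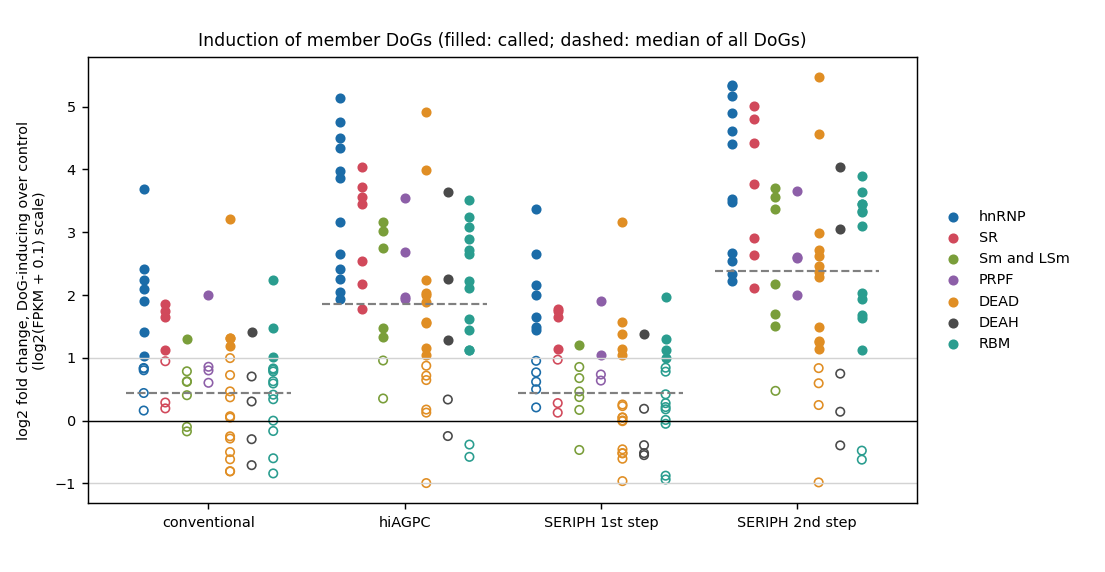
Log2 fold change of the 65 members, DoG-inducing over control (y axis), in the 4 preparations (x axis), with 1 point per gene coloured by role, filled where called; dashed lines are the medians over all 3139 DoGs and grey lines the fold threshold. The hnRNP and SR points in hiAGPC and the 2nd-step fraction are all filled, and no point below 0 is.

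All 12 hnRNP members were called higher in hiAGPC and in the 2nd-step fraction, with median log2 fold changes of 3.51 and 3.97. All 7 SR members were as well, with medians of 3.45 and 3.76. The medians over all DoGs were 1.86 and 2.38. After centring every library on the median of its DoGs, which takes out this shared shift, 12 hnRNP members in hiAGPC and 11 in the 2nd-step fraction stayed above 0, with 7 and 8 called higher and 0 lower, and 6 of the 7 SR members stayed above 0 in each, with 4 called higher and 0 lower.

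The helicases had medians below those of all DoGs. The DEAD-box medians were 1.36 in hiAGPC and 1.89 in the 2nd-step fraction, and the DEAH-box medians 1.29 and 0.75. Of the 16 DEAD-box members 10 were called higher in hiAGPC (62.5%) and 12 in the 2nd-step fraction (75.0%), and of the 5 DEAH-box members 3 and 2 were. Over all DoGs the shares were 70.2% and 74.6%. After centring, the direction of many turned, with 6 DEAD-box members called lower in hiAGPC and 5 in the 2nd-step fraction, against 2 called higher in each. Of all DoGs 28.7% and 28.2% were then called lower, and 13.9% and 18.5% higher, so such a turn was not particular to the helicases. All 4 PRPF members were called higher in both preparations, and 4 of 4 and 3 of 4 stayed above 0 after centring. Sm and LSm members were called higher in 5 and 6 of 7 cases (71.4% and 85.7%) and RBM members in 12 of 14 in each preparation (85.7%). These stand beside the same 70.2% and 74.6% over all DoGs. After centring, 3 of 7 Sm and LSm members were above 0 in each, and 8 and 7 of 14 RBM members.

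Over the 65 members centring left 20 called higher and 11 lower in hiAGPC, where 13.9% and 28.7% of all DoGs were, and 25 higher and 12 lower in the 2nd-step fraction, where 18.5% and 28.2% were. The absence of members called lower thus belongs to the uncentred scale.

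In all 4 preparations 21 members were called higher (32.3%, all DoGs 18.7%), among them HNRNPC, HNRNPD, HNRNPDL, HNRNPA2B1, SRSF1, SRSF3, SRSF5, DDX39B, DDX3X, DDX24 and DHX15. Another 28 were called higher in hiAGPC and the 2nd-step fraction and in neither the conventional nor the 1st-step preparation (43.1%, all DoGs 44.8%), among them HNRNPU, HNRNPR, SRSF7, LSM12, SNRPE, DDX23 and DHX8. Both counts depended on the pseudocount. At 0.01, 35 members were called higher in all 4 preparations (all DoGs 44.8%) and 13 in the heated ones alone (all DoGs 20.4%), and at 1 these were 2 (all DoGs 0.573%) and 17 (all DoGs 9.84%). The 9 called higher in no preparation (13.8%, all DoGs 24.7%) were DDX19B, DDX27, DDX46, DDX47, DHX34, DHX36, LSM14A, RBM19 and RBM28.

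For members already listed under control conditions the FPKM region was far longer than the control listing. The 20 listed in both control 2nd-step libraries had a median control length of 10 kb and a median FPKM region of 331 kb, with a median ratio of 24.1 between them, whereas for the 572 genes so listed the lengths were 15 and 25 kb and the median ratio 1.0. The control signal of the members was thus averaged over sequence that mostly DoG-inducing libraries had added, and the part of this in the calls was not tested. Among the 20 listed in both control 2nd-step libraries, 15 were called higher (75.0%) and 0 lower, where 23.8% and 47.6% of the 572 genes so listed were. Among the 16 listed in both control hiAGPC libraries, 11 were called higher (68.8%) and 0 lower, where 20.3% and 35.1% of 404 genes were. In the conventional preparation 5 of 11 were called higher and 0 lower (8.03% and 38.3% of 274 genes), and in the 1st-step fraction 4 of 10 and 0 (8.29% and 34.6% of 217 genes). The 5 in the conventional preparation were DHX15, HNRNPC, HNRNPD, SRSF1 and SRSF3. After centring, 11 of the 20 were called higher and 5 lower in the 2nd-step fraction (5.59% and 78.7% of all so listed) and 7 and 5 of 16 in hiAGPC (4.46% and 78.2%). These shares are descriptions of lists chosen with earlier results known, and each gene was called in the same fit as above.

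The 26 members whose longest region met no other gene on their strand gave 19 called higher in the 2nd-step fraction (73.1%, all DoGs 74.6%) and 20 in hiAGPC (76.9%, all DoGs 70.2%), with 0 lower in either.

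The question of extraction was addressed by comparing preparations within a condition. Under control conditions hiAGPC against the conventional preparation gave 0 members called in either direction (all DoGs 1.08% higher and 0.0% lower in limma). At an unadjusted p under 0.05, 25 members differed, beside 801 of all 3139 DoGs. The 2nd-step fraction against hiAGPC likewise gave 0 in either direction (all DoGs 0.86% higher and 1.47% lower), with 26 at an unadjusted p under 0.05 (all DoGs 1166). The 2nd-step against the 1st-step fraction gave 4 members higher (all DoGs 11.0%) and 0 lower (all DoGs 3.28%), with 43 at an unadjusted p under 0.05 (all DoGs 1651). These 4 were DDX11, RBM4, HNRNPH3 and DDX19B, at log2 fold changes of 1.55, 1.31, 1.25 and 1.06. Control libraries had member medians of 0.06 to 0.14, near the pseudocount of 0.1, which holds most control differences below the fold threshold. Few calls there are thus no sign that the preparations were alike. At a pseudocount of 0.01 each control comparison gave more members called higher, as listed under the dependence on processing.

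After induction, with values mostly further above the pseudocount, more members were called between preparations. Against the conventional preparation hiAGPC had 50 members called higher (all DoGs 68.8%) and 0 lower (all DoGs 0.478%), with a median log2 difference of 1.68 against 1.40 over all DoGs. Against the 1st-step fraction the 2nd-step fraction had 60 members called higher (all DoGs 79.3%) and 0 lower (all DoGs 2.96%), with a median of 2.30 against 1.99. All 12 hnRNP and all 7 SR members were called in both comparisons, before centring. Between the SERIPH fractions RBM4 had a log2 difference of 4.21 ± 0.08 (SE, limma adjusted p = 1.14e-12), DDX3X 3.57 and HNRNPC 3.55. At a pseudocount of 0.01 DHX8 and SNRPD3, whose 1st-step values were 0.01 to 0.03, stood above RBM4, at 5.18 ± 0.45 and 4.87 ± 0.41 (SE) against 4.52 ± 0.10. The 5 members not called between the fractions included LSM14A, at −0.81, RBM19, at −0.29, DDX46, at −0.20, and RBM28, at 0.47. With the libraries centred, 7 members were called higher and 4 lower in the first comparison, and 13 higher and 5 lower in the second.

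The heated preparations, hiAGPC and the 2nd-step fraction, differed less from each other. The DoG-inducing 2nd-step fraction against hiAGPC had 6 members called higher (all DoGs 6.91%) and 0 lower (all DoGs 1.75%). At an unadjusted p under 0.05, 50 members passed, beside 2364 of all 3139 DoGs. The 6 were RBM5, SNRPD3, RBM33, RBM4, DHX8 and DDX23. RBM5 had a difference of 1.30 ± 0.16 (SE, limma adjusted p = 2.49e-05) and SNRPD3 one of 1.25 ± 0.16. The other 4 lay between 1.02 and 1.03, just past the threshold, and leaving out 1 library took each of them below it. Of the 6, SNRPD3, DHX8 and DDX23 were listed in the 2 DoG-inducing 2nd-step libraries alone, and RBM33 in 1 of these alone. These members entered through the group in which they were called higher, so their calls are no independent support for a difference. After centring, 0 members were called in either direction (all DoGs 0.0% higher and 3.7% lower). The hnRNP and SR members were shifted by medians of 0.62 and 0.64, with none called, beside 0.52 over all DoGs.

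The difference between preparations in the size of induction was tested as an interaction. Compared with the conventional preparation, induction in hiAGPC was larger for 48 members (all DoGs 64.0%) and smaller for 0 (all DoGs 0.733%). It was larger in the 2nd-step than in the 1st-step fraction for 52 members (all DoGs 72.9%) and smaller for 0 (all DoGs 4.21%). HNRNPC had such a difference between the SERIPH fractions of 3.90 ± 0.09 on the log2 scale (SE, limma adjusted p = 6.42e-11). DDX39B and HNRNPDL, which rose strongly in every preparation, had smaller differences of 2.30 ± 0.12 and 1.80 ± 0.12. LSM14A and DDX46 had differences of 0.01 ± 0.14 and −0.02 ± 0.21.

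Region lengths were compared where all 4 libraries of hiAGPC and of the 2nd-step fraction had a listed region. Under DoG-inducing conditions 28 of 41 members had a longer mean region in the 2nd-step fraction (68.3%), 2 a shorter one and 11 the same length. Over all 1287 genes so listed 75.1% were longer in the 2nd-step fraction. Both 2nd-step libraries exceeded both hiAGPC libraries for 18 members (43.9%, all genes 45.9%). The median length of the 41 was 145 kb in the 2nd-step fraction and 100.3 kb in hiAGPC, against 62.5 and 35 kb over all genes, and the median ratio was 1.19 against 1.36. The members were long in both preparations and gained less in ratio than the average gene.

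**Figure D4:**
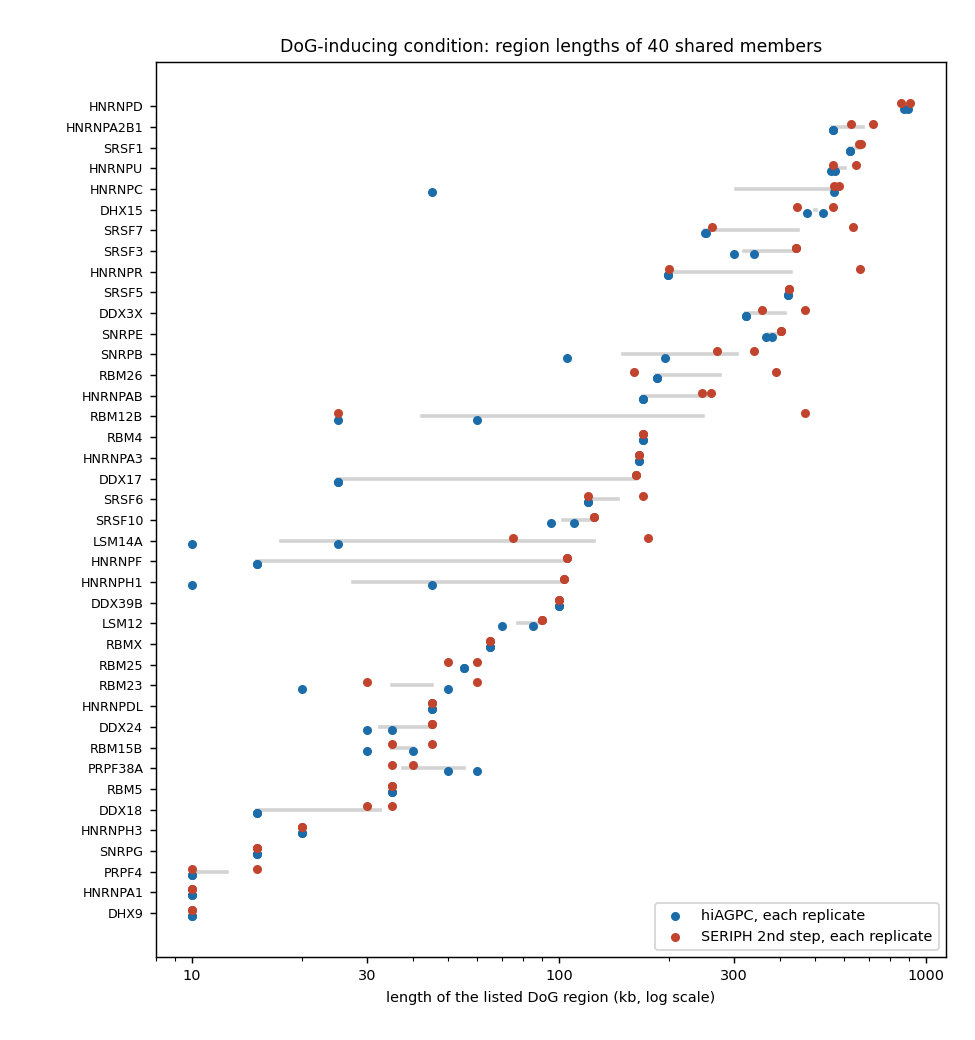
Length of the listed DoG region in kb (x axis, log scale) for 40 of the 41 members listed in both replicates of DoG-inducing hiAGPC and 2nd-step libraries (y axis, ordered by mean 2nd-step length); points are single libraries and grey lines join the means. DDX17, HNRNPF and LSM14A show the widest gaps, and HNRNPC has 1 hiAGPC library at 45 kb beside 564 kb in the other.

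DDX17 went from 25 kb in both hiAGPC libraries to 162 kb in both 2nd-step libraries, and HNRNPF from 15 to 105 kb in the same way. HNRNPH1 had 45 and 10 kb in hiAGPC and 103 kb in both 2nd-step libraries. LSM14A had 10 and 25 kb in hiAGPC, and 175 and 75 kb in the 2nd-step fraction. PRPF38A was shorter in the 2nd-step fraction, at 35 and 40 kb against 60 and 50 kb, and HNRNPD had means that differed by less than its replicates did. The replicates themselves were uneven for several members. HNRNPC had 564 and 45 kb in hiAGPC, SRSF7 had 262 and 632 kb in the 2nd-step fraction, HNRNPR 660 and 200 kb, and RBM12B 25 and 470 kb.

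Some lengths did not vary at all. In 10 members all 4 DoG-inducing hiAGPC and 2nd-step libraries gave the same length, among them RBM4 at 170 kb, DDX39B at 100.3 kb, RBMX at 65 kb, HNRNPDL at 45 kb and RBM5 at 35 kb. In 6 of these 10 the next gene on the strand began within 5 kb of the region's end, and so it did in 17 of the 65 members. For RBM5 the next gene, SEMA3F, began 1.02 kb further on, and for RBMX it was ARHGEF6 at 2.07 kb. Under control conditions 3 of 16 shared members were longer in the 2nd-step fraction (18.8%), 0 were shorter and 13 equal, mostly at the minimum of 10 kb that the authors set, and 47.2% of all 358 genes were longer.

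Other splicing, RNA-binding and helicase genes with symbols outside the rule, 39 of a list of 99, were called higher about as often as all DoGs in the heated preparations. In the 2nd-step fraction 29 of them (74.4%, all DoGs 74.6%) were called higher on induction and 0 lower, and in hiAGPC 27 (69.2%, all DoGs 70.2%) and 0. In the conventional preparation 16 (41.0%, all DoGs 22.2%) were called higher and 2 lower. SFPQ, a paraspeckle protein, had FPKM of 0.25 and 0.27 in the control 2nd-step fraction and 5.21 and 5.33 after induction. The SR-like regulator TRA2B had 1.12 and 1.14, and then 5.06 and 5.0. The induced levels lay within the range of the SR members' means in that group (1.105 to 8.64). Under control conditions the SR means ran from 0.06 to 0.385, so SFPQ lay within that range and TRA2B above it.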

How the data were processed

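The 16 libraries (2 replicates of 4 preparations under 2 conditions) were stranded and rRNA-depleted. The authors trimmed reads with fastp 0.25.0, filtered out ribosomal DNA reads (Bowtie2 2.5.4), mapped what was left onto GRCh38 (STAR 2.7.11b, unique hits only) and ran ARTDeco on each library with GENCODE v49 genes (minimum length 10000 bp, windows of 5000 bp, coverage 0.5). The deposited FPKM values were made by the authors over 1 region per DoG and are rounded to 0.01, so reads were not recovered and depth is unknown beyond the nominal 20 to 60 M read pairs of 150 bp. No counting interval is given. The authors' own comparisons, made with DESeq2, were not used.

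Region lists and FPKM were read with Python 3.11.15 (pandas 2.3.3, numpy 2.4.6, scipy 1.17.1), and plots used matplotlib 3.10.9. A limma 3.58.1 model (R 4.3.3) with an intensity trend was fitted to log2(FPKM + 0.1) of all 3139 DoGs in the 16 libraries, with Benjamini-Hochberg adjustment within each comparison, after being tested on simulated data. Symbols and gene ends came from GENCODE v44 (3131 of 3139 DoGs matched), an older release than the authors'. Bases were read from the GRCh38 reference. Where a gene had 2 DoGs, the first identifier was used.

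The members and lists were chosen with earlier results of these data known. The genes named with values were the 3 with the highest mean FPKM in each role, the top 3 and bottom 3 called members by log2 fold change per main comparison, the 3 longest, and those listed in both replicates of a control group. HNRNPF, HNRNPH1, HNRNPA1, HNRNPH3, DDX19B, RBM41 and DHX34, members given as lists behind a count, and the control-listed and same-length counts were chosen after their values were seen. Alternatives were a mean FPKM of 0.1 or more, a pseudocount of 0.01 or of 1, centring on library medians, a replicate block, each library left out, a listing in either replicate, a minimum length of 20 kb and regions sharing at least 50% of each other. Single values of 1 member, left out of the plots by gene, and of 1 neighbouring gene are not reported here.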

Additional observations from a re-analysis of the deposited data

Results flagged for a closer look

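The size of induction differed between preparations in the interaction test. Compared with the conventional preparation, induction in hiAGPC was larger for 48 members (all DoGs 64.0%). It was larger in the SERIPH 2nd-step than in the 1st-step fraction for 52 members (all DoGs 72.9%). With libraries centred on their medians these became 7 higher and 4 lower (all DoGs 3.47% and 17.3%), and 14 higher and 8 lower (all DoGs 9.27% and 22.4%). Whether more DoG RNA or less other RNA underlies the difference was not tested. No group had 4 or more libraries, so no single library was screened as far from the others.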

How the results depend on the processing

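Centring on library medians and the pseudocount moved most counts of members, and counts over all DoGs moved as well. In the main setting 9 members were called higher in no preparation (all DoGs 24.7%). At a pseudocount of 1 these were 34 (all DoGs 73.7%), and at 0.01 they were 9 (all DoGs 23.9%). The pseudocount counts below are given without shares over all DoGs, so they do not set the members apart from other DoGs. With centring, induction gave 11 higher and 7 lower in the conventional preparation (all DoGs 8.6% and 19.6%), 20 and 11 in hiAGPC (13.9% and 28.7%), 12 and 8 in the 1st-step fraction (8.89% and 18.6%) and 25 and 12 in the 2nd-step fraction (18.5% and 28.2%). It gave 7 higher and 4 lower for hiAGPC against conventional and 13 and 5 for the 2nd-step against the 1st-step fraction after induction, 2 lower for the fractions under control conditions, 0 higher for the 2nd-step fraction against hiAGPC, and 7 and 4, and 14 and 8, for the differences in induction. With a pseudocount of 1, induction calls fell to 2, 19, 2 and 31 higher in the same order, and the comparisons after induction to 16, 27 and 0, the control fractions to 0 and the differences in induction to 15 and 24. With 0.01 the conventional preparation gave 40 higher and 1 lower, hiAGPC 1 lower, the 1st-step fraction 5 lower and the 2nd-step fraction 1 lower, control comparisons 3, 18 and 1 higher and 1 lower (fractions), and the 2nd-step fraction against hiAGPC 11 higher after induction. A minimum length of 20 kb left 2, 2, 2 and 3 members in the control groups and 10 and 9 in the DoG-inducing conventional and 1st-step groups. A listing in either replicate gave 23 in the DoG-inducing 1st-step group.

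With centring, 21 of the 65 members turned from a positive to a negative log2 fold change in the 2nd-step fraction and 21 in hiAGPC. Among the called genes named by rule these were, in the 2nd-step fraction, DDX11 −1.10, DDX17 −0.98, DDX18 −0.99, DDX31 −0.76, PRPF4 −0.25, RBM20 −0.30, RBM25 −1.12, RBM33 −0.61, RBMX −0.56, SNRPD3 −0.55 and SRSF7 −0.14. In hiAGPC they were DDX11 −0.76, DDX23 −0.027, DDX31 −0.87, DHX9 −0.63, RBM20 −0.47, RBM25 −0.79, RBM33 −0.80, RBMX −0.30 and SRSF7 −0.13. Centring takes out the shift shared by most DoGs. The cause of the other changes was not tested.

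With each library left out in turn, the remaining library of its group being assumed to vary like the other groups, members called higher on induction ranged over 21 to 22 (conventional), 53 to 54 (hiAGPC), 22 to 24 (1st step) and 55 to 56 (2nd step), and those called lower over 0 to 0, 0 to 1, 0 to 4 and 0 to 1. The 4 came without DoG-inducing 1st-step replicate 2. After induction hiAGPC against conventional gave 50 in each case, the fractions 58 to 60, and the 2nd-step fraction against hiAGPC 5 to 10, the 10 without DoG-inducing 2nd-step replicate 2. Under control conditions these gave 0 to 1, 3 to 4 (0 to 1 lower) and 0 to 1. Differences in induction ranged over 45 to 49 and 50 to 55. Members listed ranged over 11 to 12, 16 to 18, 10 to 11 and 21 to 21 in the control groups and 20 to 25, 43 to 46, 16 to 22 and 57 to 60 in the DoG-inducing groups. Members longer in the 2nd-step fraction ranged over 21 to 29 after induction, with 1 to 9 shorter, the 9 without replicate 2, and over 2 to 3 in control.

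Replicate numbers were shared between groups. Correlations of replicate differences ran from −0.072 to 0.128 over 10 pairs of groups and 3130 DoGs. Such correlations cannot undo the sharing of cells between preparations that the protocol sets, and the main fit did not model it. The replicate block gave 55 members higher on induction in the 2nd-step fraction and 53 in hiAGPC, and moved no count of members by over 1.5 times. It used a single term for replicate number across both conditions, so it did not model the separate cultures of each condition. The rounding of FPKM to 0.01 limits members near 0 in control libraries, such as DDX3X.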
